A study of Homo sapiens with 56 samples.

Results

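The transcription factor MYC and 39 ribosome biogenesis factors were followed in colorectal cancer cell lines given 2-methylisocitrate, abbreviated 2-MiCit. The 40 genes came from a list of symbols that was drawn up with earlier results of these data known. They were matched to the Ensembl identifiers of the deposited count tables, in which 38 of them had a row. FBL and BOP1 were not analysed here, because no row carried their identifier. In all, 16485 genes had a row in the first of these tables and 16454 in the last.

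Ribosomes are assembled in the nucleolus. RNA polymerase I transcribes the ribosomal RNA precursor, small nucleolar ribonucleoproteins (snoRNPs) guide its chemical modification, and a long series of assembly factors folds and cleaves it while ribosomal proteins are added. MYC, paired with its partner MAX, binds E-box sequences and activates genes at each of these steps, and in colorectal tumours MYC is a well-known target of Wnt signalling.

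The study treated 7 epithelial colon lines, labelled wild-type, with 10 mM 2-MiCit or with water as vehicle, and made 4 RNA libraries of each arm, 56 in all. HCT116, DLD1, LoVo and SW948 share the first table, and HT29, SKCO1 and SW1417 share the last one. The labels give no treatment length and do not say whether the 4 libraries of an arm came from separate cultures, so a p-value here sets a difference against the scatter of the libraries alone, part or all of which may be technical. The growth description names the 4 lines of the first table. Each line is an established tumour culture with no stroma, and in such bulk libraries fewer cells and less RNA per cell cannot be told apart.

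Library totals were 13837856 to 19447718 estimated counts in the first table and 29072881 to 45432695 in the last. Levels are given in CPM, a gene's count as a share of the library total scaled with edgeR's TMM factors. Of 10 colon epithelial markers, 9 had a row and 6 to 9 of them averaged at least 1 CPM in every line. Their summed CPM was 4682 to 5264 in HCT116 controls and 6131 to 7156 after 2-MiCit, and its part in the HCT116 results was not tested. The summed CPM of the fibroblast markers was at most 23.6 and of the endothelial markers at most 2.26 in any library. The leukocyte markers summed to 929.5 to 1128 in SW948 and 1691 to 1875 in HT29. In SKCO1 they summed to 76.4 to 81.6 in controls and 83.1 to 88.1 after 2-MiCit, and the part of this in the results was not tested. A pair of libraries stood apart in how counts depended on transcript length: DLD1 control replicate 1 had a slope of -0.27 log2 units for each doubling of length, and SW948 2-MiCit replicate 2 had -0.22. The mitochondrial share of counts in HCT116 was 1.63 to 2.72% in controls and 2.68 to 4.06% after 2-MiCit, and in SKCO1 3.06 to 3.47% and 3.37 to 4.10%. Its part in the results was not tested.

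The core E-box CACGTG, which MYC and MAX bind, lay in 14 of the 42 promoter windows of members (33.3%), against 2548 of 35116 promoters (7.26%) of the same length over all genes. Each window covers 250 bases before and 50 after a transcription start in RefSeq on GRCh38.p14. The letters read the same on both strands. Windows existed for 33 of the 40 listed genes, and 14 of these genes held the motif. A match describes the letters and is not a measured binding site. The windows of GNL3, NOP14 and RRP9 are shown because, among members with the motif, GNL3 and RRP9 were called lower in the most lines, 3 each, and NOP14 had the smallest HCT116 adjusted p of those called lower in 2. Capitals mark the motif, and sequences run 5′ to 3′ on the gene's strand. The GNL3 window is chr3:52685782-52686081 on the plus strand, with the motif starting at base 7 after the start. The NOP14 window is chr4:2963357-2963656 on the minus strand, with the motif at base 16. The RRP9 window is chr3:51941855-51942154 on the minus strand, with the motif at base -5, before the start.
GNL3: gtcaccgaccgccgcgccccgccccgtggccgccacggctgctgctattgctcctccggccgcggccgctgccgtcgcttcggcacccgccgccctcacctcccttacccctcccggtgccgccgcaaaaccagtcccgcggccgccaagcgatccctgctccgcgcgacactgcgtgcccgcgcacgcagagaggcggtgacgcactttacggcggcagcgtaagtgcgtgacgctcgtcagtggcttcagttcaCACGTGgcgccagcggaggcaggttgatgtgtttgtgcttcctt
NOP14: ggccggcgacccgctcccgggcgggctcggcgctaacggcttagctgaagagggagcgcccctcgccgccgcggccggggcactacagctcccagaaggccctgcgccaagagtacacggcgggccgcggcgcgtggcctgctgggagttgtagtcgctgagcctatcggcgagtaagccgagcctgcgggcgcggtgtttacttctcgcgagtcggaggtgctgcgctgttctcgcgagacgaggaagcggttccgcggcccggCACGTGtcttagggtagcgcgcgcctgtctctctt
RRP9: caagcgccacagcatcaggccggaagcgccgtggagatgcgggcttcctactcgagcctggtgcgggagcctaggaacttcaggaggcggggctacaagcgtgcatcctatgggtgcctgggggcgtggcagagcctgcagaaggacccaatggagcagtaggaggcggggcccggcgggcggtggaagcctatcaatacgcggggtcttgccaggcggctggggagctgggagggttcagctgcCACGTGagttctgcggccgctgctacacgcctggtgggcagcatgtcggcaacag

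Ribosome biogenesis genes were called lower broadly in HCT116 and, with smaller changes, in SKCO1, and few or none were called in the other lines. The calls do not rank the lines by size of change. The median log2 fold change was -0.18 in LoVo and -0.14 in SKCO1, with median standard errors of 0.07 and 0.03. In HCT116, 31 of 38 members fell and 0 rose, where 18% of all tested genes fell and 19% rose. The median log2 fold change of the members was -0.39 (range -0.67 to -0.00), beside 0.03 over all genes. In SKCO1, 27 of 37 tested members fell and 0 rose, where 10.8% of all genes fell and 8.1% rose. The median there was -0.14 (range -0.23 to -0.05), and all 37 estimates lay below zero, as did all 38 in HCT116. A call means an adjusted p below 0.05 in edgeR's quasi-likelihood test with Benjamini-Hochberg adjustment over all genes of the line.

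In LoVo, 2 of 38 members fell and 0 rose (background 0.702% lower and 1.59% higher), although 37 of 38 estimates lay below zero, with a median of -0.18. At an unadjusted p below 0.05, 25 members were lower and 0 higher in LoVo. DESeq2 called 13 members lower there, among 490 genes lower in all. The LoVo count depended on single libraries: edgeR called 9 lower without control 1, 7 without control 4 and 0 without any one of the other 6 libraries. Over all genes, 540 were lower without control 1 and 200 without control 4, beside 96 in the main fit. HT29 had 0 calls in either direction (background 3.02% and 4.65%), with 33 of 38 estimates below zero and a median of -0.09. At an unadjusted p below 0.05, edgeR gave 14 lower and 1 higher in HT29. DESeq2 called 4 members lower there, among 723 genes lower in all. One edgeR fit over all lines of the table called 13 lower, among 1270 genes in all. DLD1 also had 0 calls (background 0% and 0.148%), a median of -0.11 and 28 of 38 estimates below zero. At an unadjusted p below 0.05, 10 members were lower and 0 higher in DLD1. DESeq2 called 1 member lower there, among 164 genes lower in all. One fit over the table called 6 lower, among 619 genes in all. The share of all genes at an unadjusted p below 0.05 was not computed for any line.

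SW948 had 0 calls (background 0% in both directions), 15 of 38 estimates below zero and a median of 0.08. Without 2-MiCit replicate 2, the library that stood apart, the SW948 median was 0.03. At an unadjusted p below 0.05, 0 members were lower and 1 was higher in SW948, and DESeq2 called 0. In SW1417, 2 members fell and 2 rose (background 4.05% and 2.94%), and the median was -0.02.

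**Figure D1:**
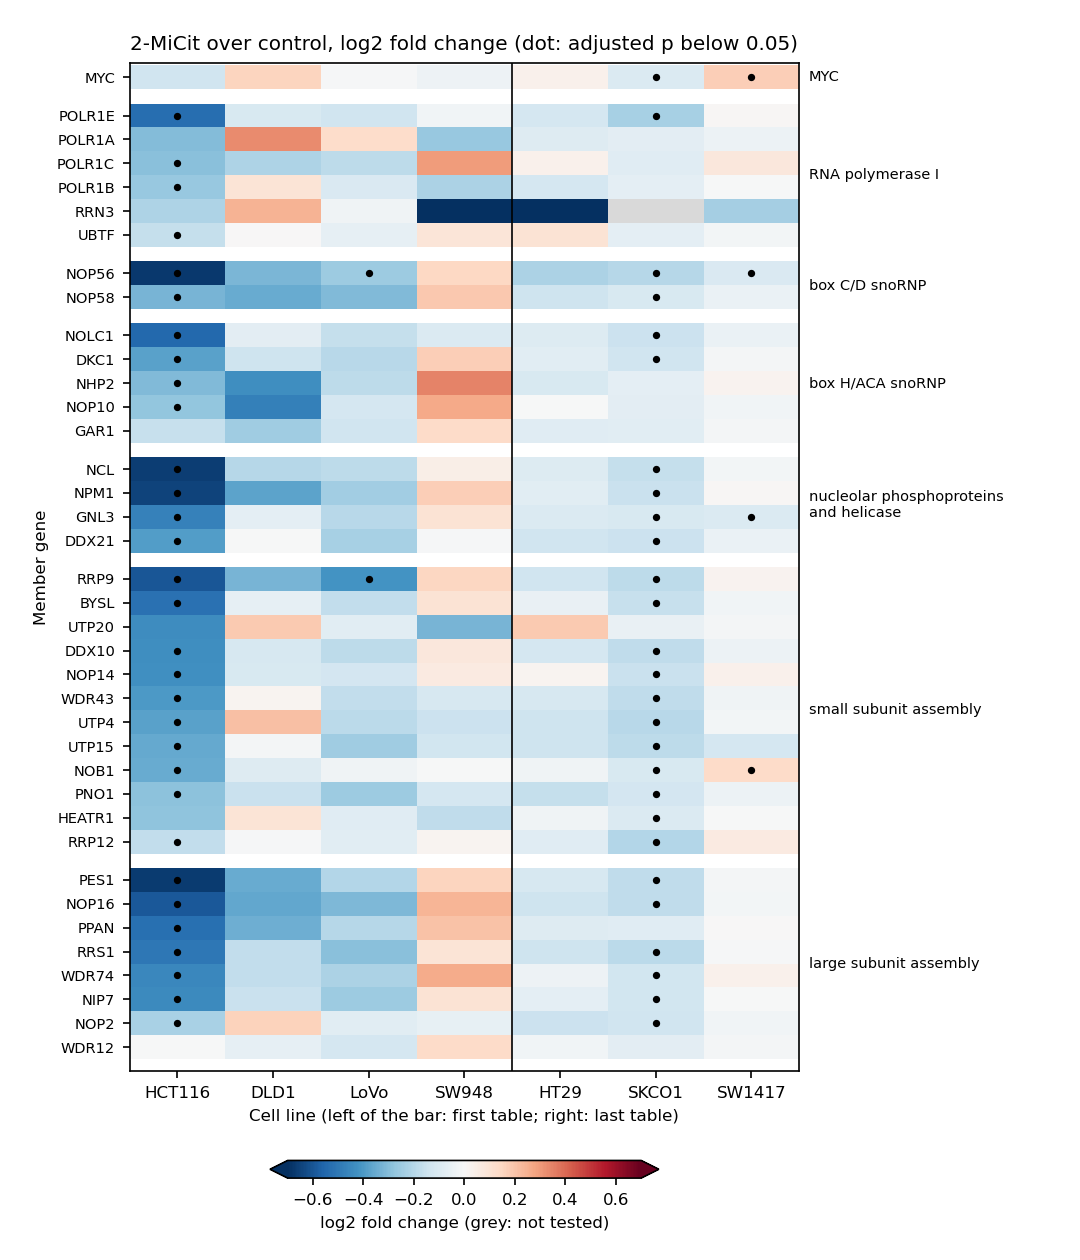
Log2 fold change of the 38 members (rows, grouped by role) in the 7 lines (columns), with dots on the members whose adjusted p was below 0.05 and colours limited at 0.7 on either side. HCT116 and SKCO1 carry 31 and 27 dots, and RRN3, grey in SKCO1, lies beyond the colour range in SW948 and HT29.

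**Figure D2:**
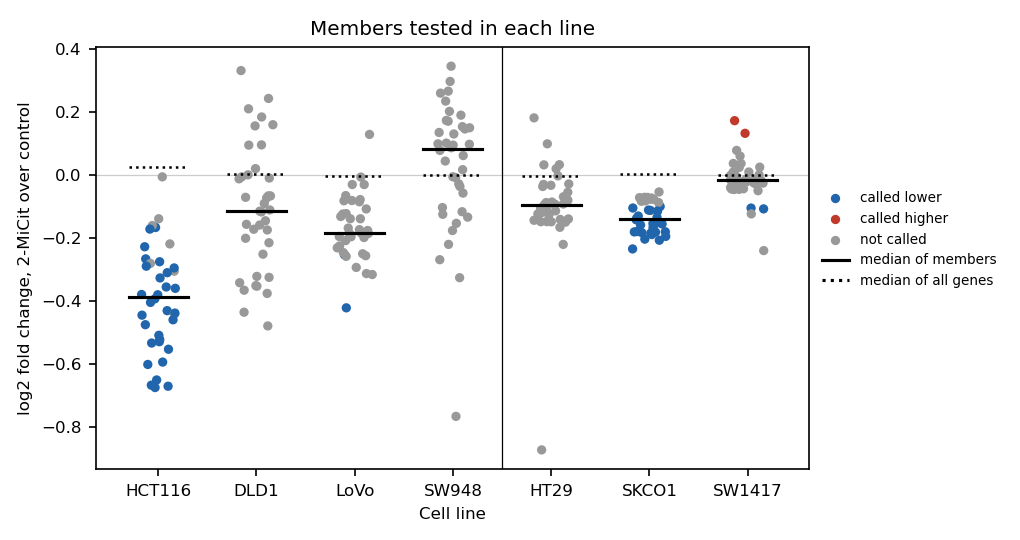
Log2 fold change of each tested member (points) by line, with the median of the members (solid bar) and of all tested genes (dotted bar). The HCT116 members range from -0.67 to -0.00 and those of SKCO1 from -0.23 to -0.05.

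The count of members whose 4 2-MiCit libraries all lay below the 4 control libraries was also highest in HCT116 and SKCO1. It was 27 in HCT116 (17.2% of all genes), 26 in SKCO1 (12.5%), 19 in LoVo (6.43%), 7 in HT29 (7.31%), 6 in DLD1 (6.1%), 1 in SW1417 (7.68%) and 0 in SW948 (2.71%). Members whose 2-MiCit libraries all lay above the controls numbered 2 in SW1417 (6.58%) and 1 in SW948 (2.49%). They numbered 0 in HCT116 (18.4% of all genes), SKCO1 (10.4%), HT29 (9.02%), DLD1 (7.75%) and LoVo (6.98%). Across lines, NOP56 was called lower in 4, GNL3 and RRP9 in 3, 22 members in 2 and 8 members in 1. Most of these calls were in HCT116 and SKCO1, where 18% and 10.8% of all genes fell. The SW1417 calls of NOP56 and GNL3 were 5.26% of members, near the 4.05% of all genes that fell there. The share of all genes called lower in as many lines was not computed. The 5 members called lower in none were GAR1, POLR1A, RRN3, UTP20 and WDR12.

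MYC itself (ENSG00000136997) was called lower in SKCO1 and higher in SW1417. It was not called in HCT116, where its estimate also lay below zero. In HCT116 the control libraries held 343, 352, 341 and 313 CPM and the 2-MiCit libraries 316, 339, 308 and 265 CPM. The groups overlapped, and the log2 fold change was -0.14 ± 0.07 (SE; 95% interval -0.30 to 0.03; adjusted p = 0.173). In SKCO1 the controls held 248.5, 242, 258 and 259 CPM and the 2-MiCit libraries 225, 229, 244 and 243 CPM. MYC fell there by 0.10 ± 0.03 on the log2 scale (adjusted p = 0.0348), with overlapping groups, and the call was lost when any of 5 single libraries was left out (control 1, 3 or 4, or 2-MiCit 1 or 2; adjusted p up to 0.120).

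In SW1417 the controls held 275, 276, 275 and 264 CPM of MYC and the 2-MiCit libraries 310.1, 312, 303 and 305 CPM. Every treated library lay above every control, a 1.13-fold rise (log2 0.17 ± 0.02, adjusted p = 0.000352) that remained called without any single library. MYC means were 190 ± 9.89 and 212 ± 13.6 CPM in DLD1 (SD, n = 4; log2 0.16 ± 0.07, adjusted p = 0.296). They were 353 ± 12.4 and 352 ± 9.62 CPM in LoVo, control first (adjusted p = 0.962). SW948 had 349 ± 15.3 and 341 ± 30.2 CPM (adjusted p = 0.834), and HT29 had 139 ± 4.00 and 142 ± 5.78 CPM (adjusted p = 0.661). Per kilobase of transcript, MYC ranked 3rd to 13th among the members in controls, and was between 58.8 CPM per kb in HT29 and 149 CPM per kb in LoVo.

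**Figure D3:**
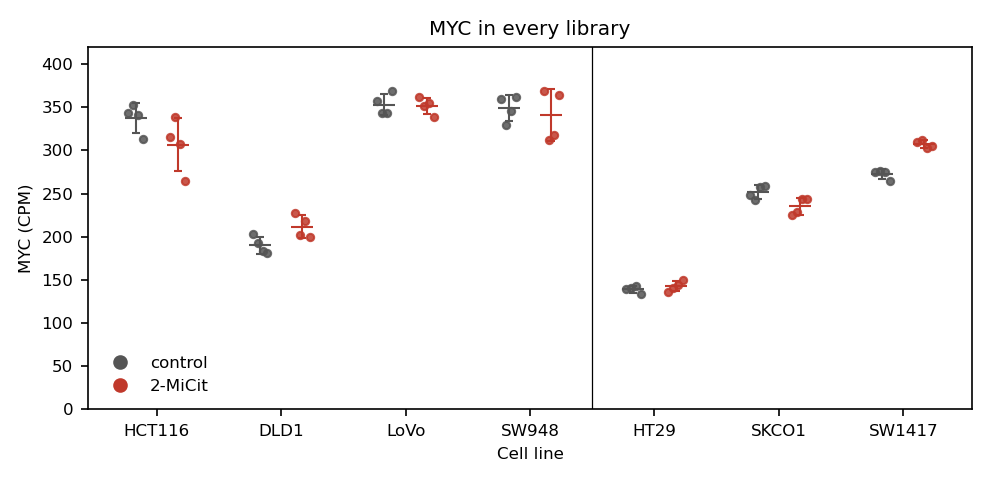
MYC CPM in every library by line, control grey and 2-MiCit red, with the mean and SD of 4 libraries. SW1417 is the line where all 4 treated libraries, 303 to 312 CPM, lie above the controls, 264 to 276 CPM.

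The RNA polymerase I genes encode enzyme subunits (POLR1A, POLR1B, POLR1C, POLR1E) and the factors UBTF, which bends ribosomal DNA, and RRN3, which links the polymerase to its promoter. In HCT116, 4 of 6 fell. POLR1E, a subunit of the polymerase-associated dimer, held 101, 103, 102 and 110.0 CPM in controls and 65.6, 72.3, 70.3 and 79.5 CPM after 2-MiCit. The groups were separate, and the log2 fold change was -0.53 ± 0.06 (adjusted p = 0.00019). POLR1C, shared with RNA polymerase III, fell by 0.29 ± 0.08 (adjusted p = 0.0118). POLR1A, the catalytic subunit, was at -0.30 ± 0.17 and did not pass (adjusted p = 0.199).

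In SKCO1, POLR1E was the single polymerase I member of 5 tested to fall, and it had the largest fold change of any member in that line. Its controls held 30.6, 31.4, 30.4 and 30.6 CPM and its 2-MiCit libraries 23.9, 24.9, 27.6 and 28.2 CPM, again without overlap. The log2 fold change was -0.23 ± 0.05 (adjusted p = 0.00464). None of the 6 members of this group was called in the other 5 lines, where 0 to 4.05% of all genes fell and 0 to 4.65% rose. These zeros do not set the group apart from other genes. RRN3 was erratic: its SKCO1 libraries held 28.6, 11.2, 0 and 0 CPM in controls and 0, 0, 17.4 and 0 CPM after 2-MiCit, so it was not tested there. The human genome carries near-identical RRN3 copies between which estimated counts can be split, and its values are uncertain in all lines.

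The box C/D snoRNP proteins NOP56 and NOP58 form the core that methylates ribosomal RNA. NOP56 (ENSG00000101361, GRCh38 chr20:2652145-2658393, plus strand) was the member called in the most lines. In HCT116 it held 511, 466, 507 and 468 CPM in controls and 322, 281, 318 and 303 CPM after 2-MiCit. All treated libraries lay below the controls, a 1.59-fold fall (log2 -0.67 ± 0.06, adjusted p = 3.37e-05).

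NOP56 also fell in SKCO1, where controls held 141, 143, 147 and 144 CPM and 2-MiCit libraries 124, 121, 129 and 126 CPM. The groups were separate and the fall was 1.15-fold (log2 -0.20 ± 0.02, adjusted p = 8.9e-05). In LoVo the controls held 357, 355, 351 and 394 CPM and the 2-MiCit libraries 307, 305, 316 and 296 CPM. The LoVo groups were separate as well (log2 -0.25 ± 0.05, adjusted p = 0.0382), but the call was lost when any of 6 single libraries was left out (control 2 or 3, or any 2-MiCit library; adjusted p up to 0.146). The SW1417 controls held 202, 192, 202 and 206 CPM and the 2-MiCit libraries 184, 184, 184 and 194 CPM. NOP56 fell there by 0.11 ± 0.03 on the log2 scale (adjusted p = 0.0322) with overlapping groups, and the call was lost without any of 6 libraries (control 1, 3 or 4, or 2-MiCit 1, 2 or 3).

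NOP58 fell by 0.33 ± 0.05 in HCT116 (adjusted p = 0.000826) and by 0.11 ± 0.03 in SKCO1 (adjusted p = 0.0311). In DLD1 its log2 fold change of -0.35 ± 0.15 was as large but was not called (adjusted p = 0.278). One DLD1 control, replicate 1, held 380.3 CPM of NOP58, whereas the other 3 held 243 to 271 CPM. That is the DLD1 library that stood apart in length dependence, and its part in the NOP58 estimate was not tested. With each library's trend over transcript length removed, NOP58 in DLD1 was at -0.26 ± 0.11 and was still not called (adjusted p = 0.247).

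**Figure D4:**
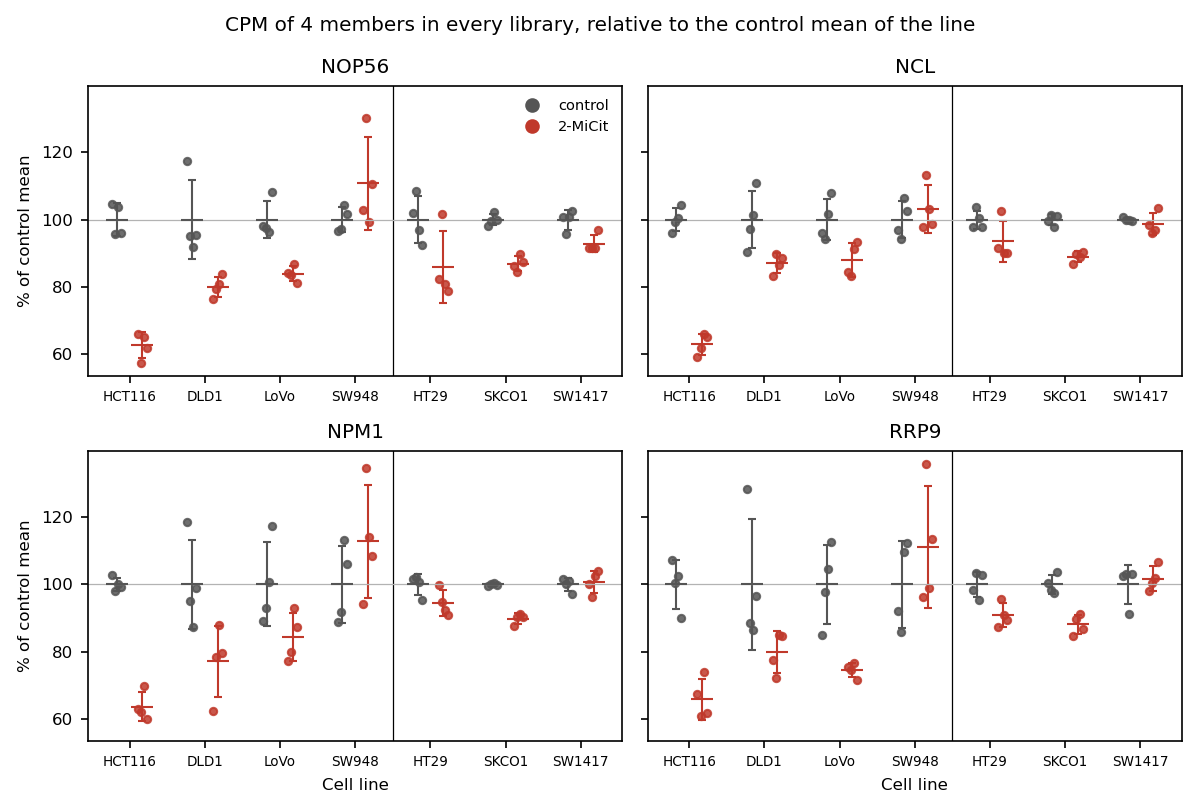
CPM of NOP56, NCL, NPM1 and RRP9 in every library as a percentage of the control mean of the line, control grey and 2-MiCit red, with mean and SD of 4 libraries. In HCT116 the treated libraries of all 4 genes lie below every control library, and in SW948 the groups overlap.

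The box H/ACA snoRNP proteins convert uridine to pseudouridine in ribosomal RNA, with DKC1 as the enzyme and NHP2, NOP10 and GAR1 as its partners. NOLC1 is a nucleolar chaperone of both snoRNP classes. In HCT116, 4 of these 5 members fell, led by NOLC1 (log2 -0.55 ± 0.07, adjusted p = 0.000174) and DKC1 (-0.38 ± 0.05, adjusted p = 0.000276). GAR1 was at -0.16 ± 0.07 (adjusted p = 0.101). In SKCO1, 2 fell, again NOLC1 (-0.15 ± 0.02, adjusted p = 0.000751) and DKC1 (-0.14 ± 0.02, adjusted p = 0.000824). No H/ACA member was called in the other lines, where 0 to 4.05% of all genes fell and 0 to 4.65% rose. All 5 estimates were below zero in DLD1, LoVo and HT29.

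Nucleolin (NCL), nucleophosmin (NPM1), nucleostemin (GNL3) and the helicase DDX21 are abundant nucleolar proteins, and all 4 fell in both HCT116 and SKCO1. NCL (ENSG00000115053, GRCh38 chr2:231453531-231483641, minus strand) held 2127, 2197, 2226 and 2310.27 CPM in HCT116 controls and 1313, 1368, 1461 and 1442 CPM after 2-MiCit. The groups were far apart, a 1.59-fold fall (log2 -0.67 ± 0.05, adjusted p = 2.11e-05). NPM1 (ENSG00000181163, GRCh38 chr5:171387116-171411137, plus strand) held 3017, 2877, 2937 and 2910.02 CPM in HCT116 controls and 1848, 1827, 2048 and 1763 CPM after 2-MiCit. It fell 1.57-fold (log2 -0.65 ± 0.05, adjusted p = 3.08e-05). NPM1 has processed copies in the genome that share its sequence, so its counts depend on how reads were divided among them.

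In SKCO1 NCL held 1432, 1461, 1409.88 and 1455 CPM in controls and 1249.91, 1294, 1280.31 and 1299.8 CPM after 2-MiCit. NPM1 held 1386, 1398, 1399 and 1392 CPM in controls and 1220.14, 1261, 1272 and 1258 CPM after 2-MiCit. Neither gene's groups overlapped, and the falls were 1.12-fold for NCL (log2 -0.17 ± 0.02, adjusted p = 0.00033) and 1.11-fold for NPM1 (log2 -0.15 ± 0.02, adjusted p = 0.000445). In controls NPM1 had the highest level per kilobase of any member in every line, from 600.2 CPM per kb in SW1417 to 1757 CPM per kb in DLD1. NCL ranked 2 in 6 lines and 3 in HT29.

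Neither gene was called in the other lines. NCL means were 2506 ± 215 and 2182 ± 72.4 CPM in DLD1 (log2 -0.20 ± 0.09, adjusted p = 0.282) with separate groups, and 2157 ± 132 and 1899 ± 107 CPM in LoVo (-0.18 ± 0.07, adjusted p = 0.176), also separate. In SW1417 NCL was 1207 ± 7.28 and 1190 ± 39.7 CPM (-0.02 ± 0.02, 95% interval -0.07 to 0.03). NPM1 was at -0.37 ± 0.13 in DLD1 (adjusted p = 0.255), -0.25 ± 0.10 in LoVo (adjusted p = 0.183), 0.17 ± 0.13 in SW948 (adjusted p = 0.542) and 0.01 ± 0.03 in SW1417 (adjusted p = 0.872).

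GNL3, which shuttles between nucleolus and nucleoplasm, fell in 3 lines: HCT116 (log2 -0.47 ± 0.05, adjusted p = 6.7e-05), SKCO1 (-0.11 ± 0.02, adjusted p = 0.00315) and SW1417 (-0.10 ± 0.03, adjusted p = 0.0491). In SW1417 its controls held 84.5, 86.0, 88.05 and 87.0 CPM and its 2-MiCit libraries 80.3, 76.5, 81.0 and 83.7 CPM. The groups were separate, but the call was lost when any single library other than 2-MiCit replicate 4 was left out (adjusted p up to 0.152).

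Among the 12 small subunit assembly factors, 10 fell in HCT116 and 11 in SKCO1. RRP9 (ENSG00000114767, GRCh38 chr3:51933430-51941941, minus strand), a protein of the U3 snoRNP that starts small subunit processing, was called in 3 lines. Its HCT116 libraries held 129, 121, 124 and 109 CPM in controls and 81.4, 73.5, 89.3 and 74.5 CPM after 2-MiCit. The groups were separate (log2 -0.60 ± 0.08, adjusted p = 0.000252).

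In LoVo RRP9 held 67.7, 77.9, 83.4 and 89.8 CPM in controls and 60.2, 59.6, 61.2 and 57.1 CPM after 2-MiCit. This was the largest estimate of any member in LoVo (log2 -0.42 ± 0.08, adjusted p = 0.0281), with separate groups. As for NOP56, leaving out any of the same 6 libraries ended the call (adjusted p up to 0.130). In SKCO1 RRP9 fell by 0.18 ± 0.03 (adjusted p = 0.00218), and in SW1417 it was at 0.03 ± 0.05 (adjusted p = 0.834).

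In SKCO1 RRP12, which acts in export of pre-ribosomes, held 87.2, 91.5, 89.8 and 85.8 CPM in controls and 75.7, 77.1, 75.8 and 78.5 CPM after 2-MiCit. It fell by 0.21 ± 0.03 with no overlap (adjusted p = 0.000196). WDR43, a component of the small subunit processome, fell by 0.18 ± 0.02 in SKCO1 (adjusted p = 0.000134) and by 0.40 ± 0.06 in HCT116 (adjusted p = 0.000687). NOP14, which binds the early small subunit, fell by 0.43 ± 0.04 in HCT116 (adjusted p = 7.44e-05). UTP20 was called in no line.

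NOB1, the endonuclease that makes the final cut in 18S ribosomal RNA, moved in opposite directions in different lines. It fell in HCT116 (log2 -0.35 ± 0.05, adjusted p = 0.000442) and SKCO1 (-0.11 ± 0.03, adjusted p = 0.0116). In SW1417 its controls held 125, 127, 125 and 118 CPM and its 2-MiCit libraries 135, 137, 138 and 133 CPM. Every treated library lay above every control, and NOB1 rose by 0.13 ± 0.03 (adjusted p = 0.00731). That call was lost under the authors' own scaling (adjusted p = 0.126).

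The 3 members with the longest coding sequences, POLR1A, UTP20 and HEATR1 (5160, 8355 and 6432 bases), were among the 7 not called in HCT116. They had standard errors of 0.17, 0.18 and 0.12 on the log2 scale, where the median member had 0.06. Over all 38 members the Spearman correlation of the standard error with transcript length was -0.03 in HCT116, and WDR12, with a transcript of 8100 bases, had a standard error of 0.05. With each library's trend over transcript length removed, an alternative added after the data were seen, all 3 were called lower: POLR1A at -0.50 (adjusted p = 0.000206), UTP20 at -0.60 (adjusted p = 0.000927) and HEATR1 at -0.43 (adjusted p = 7.84e-05). In the same fit UTP4 lost its HCT116 call (log2 -0.35, adjusted p = 0.0504). WDR12 moved from -0.00 to -0.15 with a standard error of 0.08 and stayed uncalled (adjusted p = 0.150). The HCT116 count was then 33 lower and the LoVo count 9, where 3019 and 325 of all genes were lower.

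Large subunit assembly members were called in HCT116 and SKCO1 as well, 7 of 8 in HCT116 and 6 of 8 in SKCO1. PES1, part of the complex needed to process the 5.8S and 28S precursors, held 327, 312, 327 and 309 CPM in HCT116 controls and 193, 192, 230.4 and 186 CPM after 2-MiCit. The groups did not overlap (log2 -0.67 ± 0.07, adjusted p = 7.87e-05), a fall of 1.59-fold that ranked with NOP56 and NCL. NIP7, a late large subunit factor, fell by 0.44 ± 0.04 in HCT116 (adjusted p = 6.32e-05). WDR12, a partner of PES1 in the same complex, was at -0.00 ± 0.05 in HCT116 with a 95% interval of -0.11 to 0.10. Its mean was 110.0 ± 5.16 CPM in controls and 109.6 ± 2.23 CPM after 2-MiCit. PES1 fell by 0.18 ± 0.03 in SKCO1 (adjusted p = 0.00033), and WDR12 was at -0.08 ± 0.03 there (adjusted p = 0.0961). PPAN, which overlaps a readthrough gene, fell in HCT116 (-0.53 ± 0.06, adjusted p = 0.000142), and its count may include reads of that gene.

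Differences between lines were tested as an interaction of treatment and line within each table. Among the 4 lines of the first table, 23 of 38 members differed (18% of all genes), led by NOP56 (edgeR adjusted p = 2.56e-05), NCL (4.05e-05) and NOP14 (0.000331). The HCT116 response was lower than that of SW948 for 23 members and higher for 0 (9.12% and 9.6% of all genes). It was lower than that of DLD1 for 9 and higher for 0 (3.13% and 5.22%), and lower than that of LoVo for 7 and higher for 0 (2.25% and 3.79%). For NOP56 the HCT116 response was below that of LoVo by 0.42 ± 0.10 log2 units (adjusted p = 0.00932) and below that of SW948 by 0.80 ± 0.10 (adjusted p = 2.5e-06). For NCL it was below that of DLD1 by 0.45 ± 0.09 (adjusted p = 0.00177). These comparisons share the HCT116 libraries.

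DLD1, where no member was called on its own, still had a lower response than SW948 for 11 members, among them NHP2, NOP10 and NPM1, and a higher one for 0 (7.74% and 5.49% of all genes). Both lines hold the libraries that stood apart in length dependence, and the part of those libraries in this difference was not tested. With the length trend removed, NHP2 moved from -0.43 to -0.13 in DLD1 and from 0.35 to 0.11 in SW948. NOP10 moved from -0.48 to -0.12 in DLD1 and from 0.27 to -0.01 in SW948. NPM1 moved from -0.37 to -0.25 in DLD1 and from 0.17 to 0.07 in SW948. NHP2 and NOP10 have short transcripts, of 865 and 554 bases. LoVo differed from DLD1 for 0 members (0.133% of all genes lower and 0.373% higher in DLD1) and from SW948 for 0 members (0% lower and 0.038% higher in LoVo). MYC differed between no pair of these 4 lines, and the HCT116 response minus that of DLD1 was -0.28 ± 0.10 (adjusted p = 0.0775).

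Among the 3 lines of the last table, 8 of 38 members differed (5.49% of all genes), led by NOB1 (edgeR adjusted p = 0.00103), MYC (0.00203) and RRP12 (0.00605). The SKCO1 response was lower than that of SW1417 for MYC, NPM1, RRP12, NOP14, NOB1 and WDR74, 6 members in all, and higher for 0 (0.447% and 0.578% of all genes). For MYC this difference was -0.29 ± 0.05 log2 units (adjusted p = 0.00272), and for RRP12 -0.28 ± 0.05 (adjusted p = 0.00836). HT29 was higher than SKCO1 for 2 members, UBTF and NOP14, and lower for 0 (2.45% and 1.68%). It was lower than SW1417 for 1, NOB1, and higher for 0 (1.45% and 1.99%). The last-table count was 4 with the authors' scaling and 4 to 8 with single libraries left out.

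Related genes outside the list were counted in 6 further lists, which were drawn up with earlier results of these data known. Of all tested genes, 18% fell in HCT116, 10.8% in SKCO1, 0.702% in LoVo, 3.02% in HT29 and 4.05% in SW1417. Among 33 other small subunit factors, 30 fell in HCT116, 16 in SKCO1, 5 in LoVo and 1 in HT29, the last near the share over all genes. IMP4, part of the U3 snoRNP, had the smallest adjusted p in HCT116 (log2 -0.54 ± 0.04, adjusted p = 2.35e-05). Among 39 other large subunit factors, 30 fell and 2 rose in HCT116, 25 fell in SKCO1, 4 in HT29, 2 in LoVo, and in SW1417 1 fell and 1 rose. Their medians were -0.41 and -0.37 in HCT116 and -0.11 for both in SKCO1.

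Of 9 other RNA polymerase I genes, 4 fell in HCT116 and 1 each in LoVo, HT29 and SKCO1, the last near the share over all genes. POLR1G was the one in SKCO1 (log2 -0.27 ± 0.03, adjusted p = 8.67e-05). The RNA exosome, which trims ribosomal RNA ends, had 11 of 14 genes fall in HCT116, 5 in SKCO1, 2 in HT29, 2 in SW1417 and 1 in LoVo. RNA polymerase III genes, for the enzyme that makes 5S RNA and transfer RNAs, fell in 5 of 12 cases in HCT116, 3 of 12 in SKCO1 and 1 of 13 in LoVo. MAF1, the repressor of that polymerase, rose in SW1417 (0.15 ± 0.02, adjusted p = 0.00169). None of these lists had a call in DLD1, where 0% of all genes fell and 0.148% rose, or in SW948, where 0% did either. These zeros do not set the lists apart from other genes.

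The partners and antagonists of MYC had calls in both directions in HCT116 and only higher calls in LoVo, HT29, SKCO1 and SW1417. MXD4, which pairs with MAX and represses E-box genes, rose in 4 lines: HCT116 (log2 0.96 ± 0.09, adjusted p = 5.77e-05), LoVo (0.57 ± 0.09, adjusted p = 0.0123), SKCO1 (0.34 ± 0.05, adjusted p = 0.000169) and SW1417 (0.40 ± 0.05, adjusted p = 0.000324). In HCT116, 4 of 11 tested partners rose and 2 fell, where 19% of all genes rose and 18% fell. The 2 that fell were near the share over all genes. In SW1417, 3 of 12 rose (2.94% of all genes), in SKCO1 2 of 12 (8.1%), and in LoVo and HT29 1 of 11 each (1.59% and 4.65%). The HT29 gene was MLXIP (0.29 ± 0.06, adjusted p = 0.0188), which pairs with MLX. MXD1 in DLD1 was at 0.97 ± 0.15 and did not pass (adjusted p = 0.0564).

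**Figure D5:**
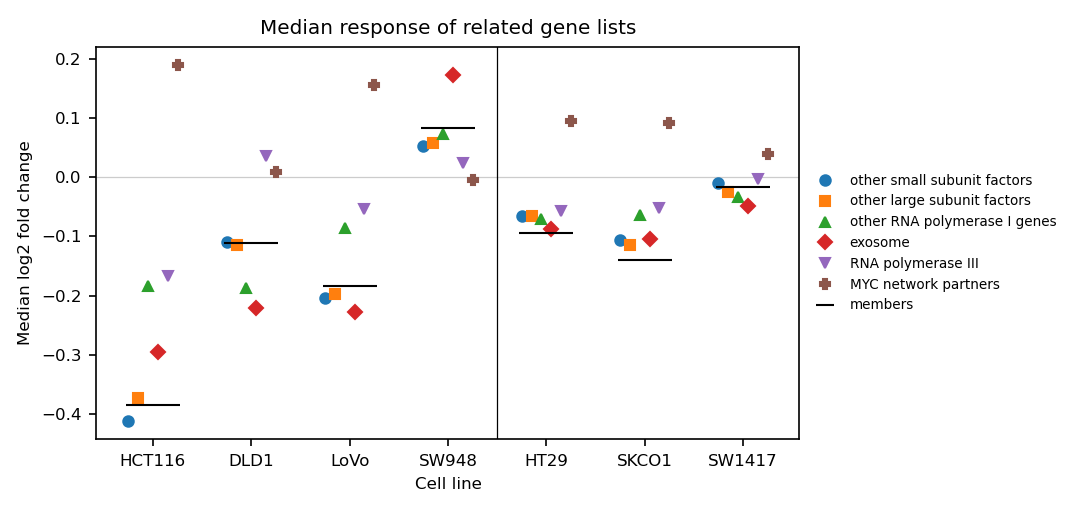
Median log2 fold change of each related gene list (symbols) and of the members (black bars) by line. In HCT116 the assembly lists lie near the members at -0.41 and -0.37, and the list of MYC partners lies at 0.19.

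Members with and without the E-box letters in their promoter window were set side by side, with no test. In HCT116 the median log2 fold change was -0.40 for the 13 measured members with the motif and -0.36 for the 19 without it, and 11 and 15 of them fell. In SKCO1 the medians were -0.15 and -0.12, and 10 and 11 fell. The medians with and without it were -0.07 and -0.14 in DLD1, -0.17 and -0.18 in LoVo, and 0.06 and 0.10 in SW948. They were -0.12 and -0.09 in HT29 and -0.02 in both sets in SW1417. The set with the motif was thus the lower one in some lines and the higher one in others. Among the windows of other small subunit factors 37.5% held the motif, of other large subunit factors 28.9%, and of the exosome 7.69%.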

How the data were processed

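RNA of 7 lines was sequenced from stranded mRNA libraries. Per the submitters' processing notes, reads were handled with bcl2fastq 2.20.0, Trimmomatic 0.39, Salmon 1.5.0 and DESeq2 on GRCh38.p13. The settings of these tools are not stated in the labels. The authors deposited 2 tables of whole-number counts per gene, which Salmon divides among similar transcripts, and normalized counts, a signal scaled by the authors' size factors and used here only to recover that scaling as an alternative. Identifiers were matched to symbols with GENCODE 29; 1140 and 1162 identifiers had no symbol and stayed in the tests (3.29 to 4.45% of counts).

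Each line was fitted alone in edgeR 4.0.16 (filterByExpr, TMM, robust quasi-likelihood F test, two-sided), with Benjamini-Hochberg adjustment over all its genes and a threshold of 0.05. Interactions were fitted once per table, so no test compares a line of the first table with one of the last. The members and lists were chosen with earlier results of these data known. Per-library values are given for MYC, NCL and NPM1 in the lines described and, per line, for the 3 lower and 2 higher called members with the largest change. Up to 2 examples stand for each role, taken by adjusted p, beside members named after their values were seen (POLR1A, UTP20, HEATR1, GAR1, WDR12, RRN3, NOB1, PPAN, NHP2, NOP10, RRP9 and GNL3). In each table the 3 members with the smallest interaction p are named, as is the leading gene of a related list. Counts differed between replicates by more than sampling noise in every group (chi-square per degree of freedom 4.12 to 84.0). The fits were tested on simulated data.

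Alternatives were no filter, a filter of 1 CPM in 4 libraries, RLE size factors, the authors' scaling, DESeq2 1.42.0, one fit over a table, a replicate block and each library left out. Removal of a length trend (lowess span 0.5, limma 3.58.1, R 4.3.3) was added later. Standard errors are of the log2 fold change, and intervals are 95%.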

Additional observations from a re-analysis of the deposited data

Results flagged for a closer look

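Among 62 groups of 4 libraries of the named members, 5 held a library farther from the others than the 95% critical value of Dixon's test allows, where chance gives about 1 in 20. NCL in HT29 2-MiCit replicate 2 was 670.4 CPM, and the other 3 libraries held 589 to 599 CPM. Without that library NCL was called lower in HT29 (log2 -0.15, edgeR adjusted p = 0.0236). NOP56 in LoVo control replicate 4 was 394 CPM, and the others held 351 to 357 CPM. NOP56 in SW1417 2-MiCit replicate 4 was 194 CPM, above 184 CPM in each of the others. SW1417 control replicate 4 was low for MYC, at 264 CPM beside 275 to 276 CPM, and for NOB1, at 118 CPM beside 125 to 127 CPM. The log2 fold changes of MYC and NOB1 in SW1417 kept their calls without any single library.

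The response to 2-MiCit differed between lines of the first table for NOP56 (edgeR interaction adjusted p = 2.56e-05), NCL (4.05e-05) and NOP14 (0.000331). It differed between lines of the last table for NOB1 (0.00103), MYC (0.00203) and RRP12 (0.00605).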

How the results depend on the processing

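The counts of members called lower in HCT116 (24 to 36) and SKCO1 (19 to 31) and of first-table interactions (18 to 26) stayed within 1.5 times the main count under every alternative and with any library left out (25 to 31, 23 to 28 and 19 to 24). DESeq2 called 1 member lower in DLD1, 13 in LoVo and 4 in HT29, beside 164, 490 and 723 of all genes. One fit over a table called 6 in DLD1, 1 in LoVo, 13 in HT29 and 1 in SW1417. Over all genes that fit called 619, 82, 1270 and 227 lower in these lines. Removing the length trend, chosen after the data were seen, called 9 in LoVo and 1 in HT29, beside 325 and 448 of all genes. The SW1417 count lower was 1 with no filter, and under the authors' scaling 0 were lower and 1 higher. The last-table interaction count was 5 with RLE size factors and 4 with the authors' scaling. With single libraries left out, the count lower was 0 to 9 in LoVo (9 without control 1, 7 without control 4 and 0 without any of the others), 0 to 3 in HT29 and 0 to 2 in SW1417, and the last-table interaction count was 4 to 8. The cause was not tested.

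The labels do not say that equal replicate numbers share a culture or day, and the samples were not treated as paired. The correlation of same-numbered libraries' deviations was 0.08 to 0.28 in HCT116, where each of 4 numbers correlated best with its own, a hint of pairing from the data and not from the design. It was 0.03 to 0.10 in HT29 and -0.32 to 0.05 in DLD1. With the replicate block HT29 had 6 members lower and 1 higher, HCT116 had 36 lower, and MYC was called lower in HCT116 (log2 -0.14, adjusted p = 0.00947). Over all genes, 1034 were then lower in HT29 and 3348 in HCT116.

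Some log2 fold changes near zero changed sign. MYC in LoVo was 0.010 with the authors' scaling, 0.0085 in one fit, 0.021 with the length trend removed and -0.021 to 0.018 with single libraries left out (0.018 without control 4, 0.014 without 2-MiCit 4). In SW948, with single libraries left out, MYC was -0.076 to 0.0059 and NCL -0.0016 to 0.077, both changing sign without 2-MiCit replicate 2. NPM1 in SW1417 was -0.0048 to 0.031, below zero without control 4 (-0.0020) or 2-MiCit 4. The MYC call in SKCO1 was lost under the authors' scaling (adjusted p = 0.141). The median standard error of the members was 0.09 in DLD1 and 0.11 in SW948, beside 0.03 in SKCO1, whose libraries were deeper. It was 0.06 in HCT116 and 0.07 in LoVo, which share the first table with DLD1 and SW948. The part of depth in these errors was not tested.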
